A study of Diplotaxodon limnothrissa and Petrotilapia genalutea and Rhamphochromis longiceps with 60 samples.

Results

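The 43 genes described here are those of the glucose and glycogen pathways that carry a symbol in the deposited expression tables of Lake Malawi cichlids, out of 29676 genes listed. They were chosen by name, with a pattern on the gene symbol that takes hexokinases, glycolytic enzymes, enzymes of pyruvate and lactate, gluconeogenic enzymes, enzymes of glycogen and the slc2a family of sugar transporters. By role they are 8 glucose transporters, 3 genes of hexokinases and their regulator, 9 genes of glycolytic steps, 7 of pyruvate and lactate, 5 of gluconeogenesis, 5 of glycogen and 3 other phosphoglucomutases, and 3 genes are matched by their name only (*pgam5*, a mitochondrial protein phosphatase, *pkmyt1*, a kinase of the cell cycle, and *slc2a4rg*, a DNA-binding protein). Of the rows of the tables, 19697 have a LOC identifier in place of a symbol. Isozymes and further gene copies under such identifiers are not among the members, so *pfkm*, *aldoa*, *pygm*, *gys2*, *hk2*, *pkm*, *ldha*, *ldhb*, *eno3*, *fbp1*, *fbp2* and *slc2a1* have no value below. Where a member has a near-identical copy in the genome, the assignment of reads between the copies is uncertain.

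The study compared wild-caught males of species with different habitats and diets, and here RNA-seq of 11 livers and 12 muscles was used. The open-water fish were *Diplotaxodon limnothrissa* (DL, 3 livers and 3 muscles) and *Rhamphochromis longiceps* (RL, 2 livers and 3 muscles). The rock-dwelling fish were *Maylandia zebra* (MZ) and *Petrotilapia genalutea* (PG), each with 3 livers and 3 muscles. The paper describes DL as a carnivore, RL as a fish eater, and MZ and PG as algae eaters, both of the Mbuna group. According to the paper, local fishermen sold the fish dead, and tissues were put in RNAlater at collection. All tissues were homogenised whole, no fish was treated, and liver and muscle came from the same animals.

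Liver and muscle use these genes for different ends. Hepatocytes take up glucose through a low-affinity carrier, store it as glycogen, and release glucose made from glycogen or from lactate and amino acids by the last steps of gluconeogenesis. Muscle lacks these last steps and burns its glycogen itself, and fast (white) muscle of fish draws on glycogen and glycolysis for bursts of swimming. Pyruvate dehydrogenase sets how much pyruvate is oxidised inside the mitochondria, and the pyruvate dehydrogenase kinases switch it off, for instance in fasting.

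Levels are in TPM, relative transcript abundances that correct for transcript length and sum to one total per library. The tables hold no read counts, so the depth behind a value is unknown. Between 10111 and 13933 genes reached 1 TPM in a liver and between 13045 and 15324 in a muscle. The 2 listed markers of fast muscle, *actn3* and *myl1*, summed to between 5411 and 29158 TPM in the muscles and to between 1.66 and 13 TPM in 10 livers, but to 100.3 TPM in the liver of fish DL2. The 7 listed hepatocyte markers summed to between 9905 and 33049 TPM in the livers and to between 13 and 64.4 TPM in the muscles. Of these *cps1* ran against the label, with at most 0.492 TPM in livers and between 6.55 and 55.3 TPM in muscles. No red blood cell marker was listed. Differences between groups were taken after adding 1 to each TPM, as log2 fold change ± SE, and a gene is called at an adjusted p (Benjamini-Hochberg, limma) under 0.01. For genes near 0 TPM the added 1 makes a change look smaller than it is. In tissue samples, fewer cells of a type and less RNA per cell cannot be told apart.

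Liver and muscle differed in most of the members tested. Of the 36 members that reached 1 TPM in at least 2 of the 23 libraries, 30 were called between liver and muscle in at least 1 species, as were 53.9% of all genes tested. Of these 36, 7 passed the filter through the livers alone (*g6pc*, *g6pc3*, *pck1*, *pfkl*, *pygl*, *slc2a2* and *slc2a9*). A further 3 passed through the muscles alone (*gpi*, *pfkfb2* and *slc2a10*). For these members a difference between the tissues was built into the selection, so their calls between liver and muscle are no independent evidence. Of the 26 that passed in each tissue 22 were called, and the called share of all such genes was not computed. The 7 members outside these 36 (*eno2*, *eno4*, *g6pc2*, *gck*, *pkmyt1*, *slc2a11* and *slc2a13*) did not reach 1 TPM in 2 libraries. *gck*, the glucokinase of the mammalian liver, was at or below 0.584 TPM in every library. In DL, 8 members were higher in liver and 18 lower, beside 12.2% and 22.5% of all genes. In RL, 8 were higher and 17 lower, beside 10.4% and 20% of all genes. In MZ, 8 were higher and 15 lower, beside 8.59% and 27.3%, and in PG 9 were higher and 15 lower, beside 11.2% and 20.3%. The members that were higher in liver in every species were *slc2a2*, *slc2a9*, *g6pc*, *pck1*, *pck2* and *pgm2*. Of these only *pck2* and *pgm2* passed the filter in each tissue. With the fish as a replicate block, the calls of *pgm2* in RL (adjusted p = 0.0116), MZ (0.0101) and PG (0.0119), of *pdha1* in DL (0.0146) and of *pfkl* in RL (0.0134) were lost.

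**Figure D1:**
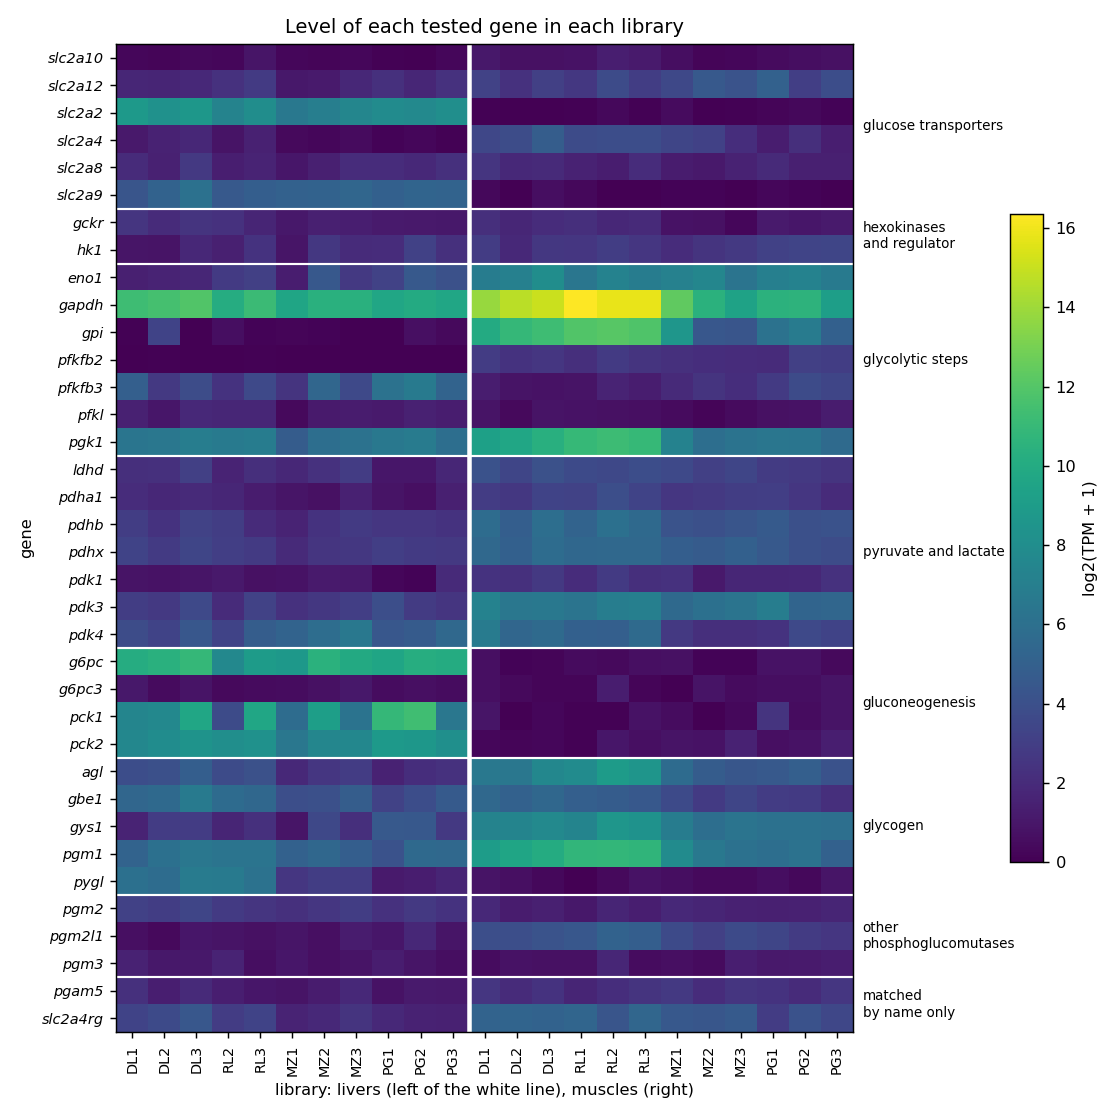
Level of each of the 36 tested genes (rows, grouped by role) in each of the 23 libraries (columns, named by fish), as log2(TPM + 1), with livers left and muscles right of the white line. *slc2a2*, *g6pc*, *pck1*, *pck2* and *slc2a9* are bright in livers and dark in muscles, and *gapdh*, *gpi*, *pgk1* and *pgm1* are brightest in the muscles of DL and RL.

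Among the members higher in liver, *g6pc*, *slc2a2*, *pck1* and *pck2* had the widest gaps. *slc2a2*, the low-affinity glucose carrier of hepatocytes, was at 458, 315 and 405 TPM in DL livers and 160.4 and 259 TPM in RL livers, against 94.9, 129 and 178 TPM in MZ livers and 239, 207 and 273 TPM in PG livers. No muscle exceeded 0.371 TPM, and the log2 fold change of liver over muscle was between 6.84 in MZ and 8.56 in DL. *slc2a9*, which carries urate in mammals, was between 18.8 and 67.5 TPM in livers and at most 0.525 TPM in muscles. *slc2a4*, the carrier that insulin brings to the surface of muscle and fat cells in mammals, ran the other way. It was between 0.0782 and 2.54 TPM in livers and between 1.53 and 27.9 TPM in muscles, and lower in the liver of every species. In PG this call was lost without muscle PG2 (adjusted p = 0.0179) and with quantile normalization (adjusted p = 0.0151). *slc2a12* was lower in liver in MZ (-2.76 ± 0.42, adjusted p = 1.92e-05) and in PG (-1.88 ± 0.42, adjusted p = 0.00117), where leaving out muscle PG1 ended the call (adjusted p = 0.0105).

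*g6pc* encodes the phosphatase that makes free glucose from glucose phosphate. It was at 1143, 1309 and 1896 TPM in DL livers and 199.7 and 511 TPM in RL livers, against 429, 1422 and 995 TPM in MZ livers and 784, 1149 and 1075 TPM in PG livers. No muscle exceeded 0.743 TPM, far under the lowest liver, that of fish RL2. *pck1*, the cytosolic phosphoenolpyruvate carboxykinase, varied widely between fish of one species. It was at 170.3, 194 and 829.8 TPM in DL livers and 12.5 and 808 TPM in RL livers, against 55, 564 and 73.6 TPM in MZ livers and 1873, 2650.0 and 89.2 TPM in PG livers. The highest muscle was PG1 with 4.49 TPM. Its log2 fold change of liver over muscle was 8.29 ± 1.26, adjusted p = 2.29e-05 in PG and 6.37 ± 1.41, adjusted p = 0.00114 in RL, where the call was lost without liver RL3 (adjusted p = 0.0805). *pck1*, like *g6pc*, passed the filter through the livers alone, so these calls are no independent evidence. *pck2*, the mitochondrial form, was steadier, between 86.9 and 442 TPM in livers and between 0.0702 and 1.95 TPM in muscles. *pfkl*, the liver form of phosphofructokinase in mammals, was between 0.360 and 2.73 TPM in livers and at most 1.36 TPM in muscles. *g6pc3*, the form of cells that do not export glucose, was at most 1.10 TPM in livers and 1.51 TPM in muscles and was not called.

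Of the glycogen genes, *pygl*, the liver form of glycogen phosphorylase in mammals, was higher in liver in DL (5.56 ± 0.28, adjusted p = 2.48e-12), RL (6.06 ± 0.31, adjusted p = 5.66e-12) and MZ (2.36 ± 0.28, adjusted p = 8.65e-07), but not called in PG (0.74 ± 0.28, adjusted p = 0.0394), where quantile normalization made it a call (adjusted p = 0.000993). *pygl* passed the filter through the livers alone, so its calls between the tissues are no independent evidence. *gys1*, the glycogen synthase of muscle in mammals, and *agl*, the debranching enzyme, were lower in liver in every species. For *gys1* in PG the call was lost without liver PG3 or any one PG muscle (adjusted p up to 0.0397), with a pseudocount of 0.1 (0.0111) and with the fish as a replicate block (0.0108). *gbe1*, the branching enzyme, was called in PG alone, higher in liver (1.29 ± 0.38, adjusted p = 0.00959), a call that 17 of the 23 single libraries end when left out (adjusted p up to 0.0679) and that was lost with the fish as a replicate block (0.0201) and with no filter on low values (0.0124).

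Of the glycolytic steps, *gpi* (glucose phosphate isomerase) showed the widest gap. Its livers were between 0 and 8.85 TPM and its muscles between 19.3 and 4441 TPM. The highest liver was that of DL2, the library with the muscle markers above, and their part in this value was not tested. Leaving this liver out did not end the call in DL. *gpi* was lower in the liver of every species, from -5.65 in PG to -11.58 in RL. Since *gpi* passed the filter through the muscles alone, this difference was built into its selection. *eno1* (enolase) was between 1.49 and 23.2 TPM in livers and between 78.6 and 256 TPM in muscles, lower in the liver of every species. *pfkfb3*, which makes the bisphosphate that switches phosphofructokinase on, was higher in liver in DL (2.82 ± 0.62, adjusted p = 0.000905) and PG (2.73 ± 0.62, adjusted p = 0.00136), the call in PG being lost without liver PG2 (adjusted p = 0.0109). Its relative *pfkfb2* was at most 0.0634 TPM in livers and between 3.10 and 7.45 TPM in muscles.

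For further members the tissues differed in some species and were not called, or differed in the opposite direction, in others. *ldhd* was called in all species but MZ, *pdk1* in DL and RL alone, *pgam5* in MZ and PG alone and *pfkl* in RL alone. The call of *pdk1* in RL was lost without any one of 17 libraries (adjusted p up to 0.0871) and with quantile normalization (0.0152). *gapdh*, *pgk1*, *pgm1* and *pdk4* are given in full. The interaction of tissue and habitat, given below, tests such a difference between the habitats only. Differences between species of the same habitat, as for *pgm1* in MZ and PG or *pdk4* in DL and RL, were not tested. *gapdh* was lower in liver in DL (-2.92 ± 0.54, adjusted p = 0.000166) and RL (-5.33 ± 0.60, adjusted p = 5.62e-07) and not called in MZ (-0.62 ± 0.54, adjusted p = 0.37) or PG (-0.28 ± 0.54, adjusted p = 0.733). *pgk1* was likewise lower in liver in DL (-3.18 ± 0.39, adjusted p = 1.14e-06) and RL (-4.26 ± 0.43, adjusted p = 1.27e-07) and not called in MZ (-0.85 ± 0.39, adjusted p = 0.0805) or PG (0.27 ± 0.39, adjusted p = 0.634). *pgm1* was lower in liver in DL, RL and MZ and not called in PG (-0.67 ± 0.46, adjusted p = 0.269), and the call in MZ was lost without liver MZ1, liver MZ3 or muscle MZ1 (adjusted p up to 0.0484) and with quantile normalization (0.0453). *pdk4* was lower in liver in DL (-2.10 ± 0.48, adjusted p = 0.0012), not called in RL (-1.16 ± 0.53, adjusted p = 0.0942), and higher in liver in MZ (3.50 ± 0.48, adjusted p = 5.16e-06) and PG (1.78 ± 0.48, adjusted p = 0.00507). The call in DL was lost without muscle DL1 (adjusted p = 0.0117), and that in PG without liver PG2, liver PG3, muscle PG1 or muscle PG3 (up to 0.0362).

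**Figure D2:**
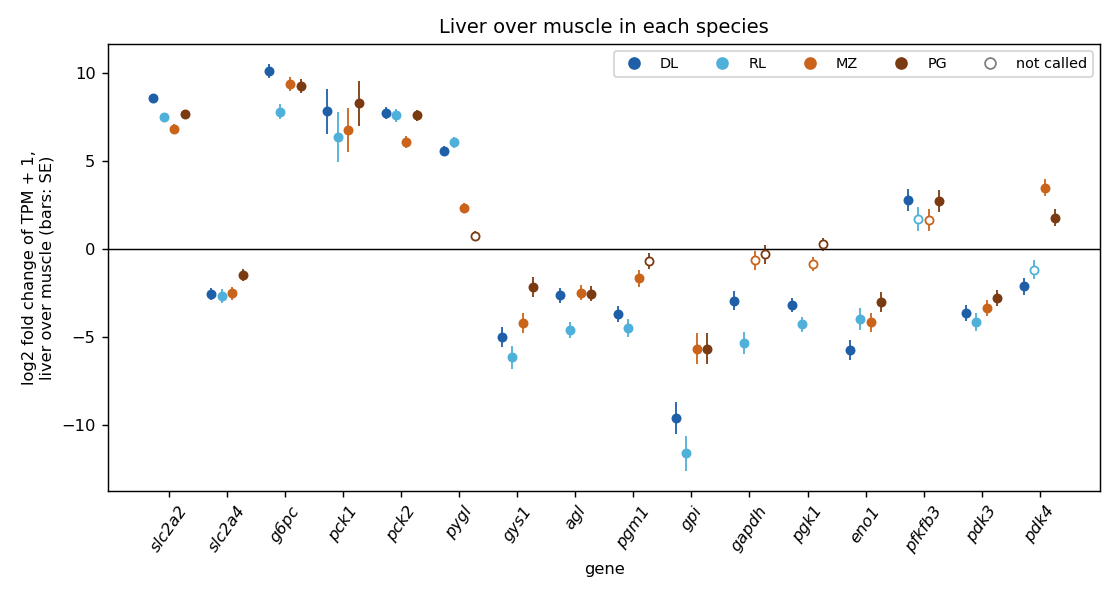
Log2 fold change of TPM + 1, liver over muscle (vertical axis), for 16 members (horizontal axis) in each species (colours), with bars for the SE and open circles for differences that were not called. *gapdh*, *pgk1* and *pgm1* lie far below 0 in DL and RL and near 0 in PG, and *pdk4* lies below 0 in DL and above 0 in MZ and PG.

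The muscles of the open-water and the rock-dwelling species were compared next. The contrast sets the mean of DL and RL over the mean of MZ and PG, and with 2 species a habitat it compares these species and does not replicate a habitat. In these species habitat goes with diet, and rock-dwelling goes with the Mbuna group, so the contrast does not separate habitat from diet or descent. Any difference between the species in catch, feeding state or time since death cannot be told apart from these either. The study's record of fishing method and place was not used here. Of the 29 members tested in muscle, 15 were higher in the open-water species and 1 lower, beside 8.45% and 8.68% of all genes. The called share of the members was 55.2%, and that of all genes in either direction was 17.1%. The median log2 fold change was 0.83 over the members tested and 0.07 over all genes. Counting the 6 pairs of species in place of the contrast, the same number of members, 16, was called in at least 1 pair, as were 17.7% of all genes. The 43 genes together made up between 1.78 and 9.26% of all TPM in open-water muscles (median 5.37%) and between 0.104 and 0.662% in rock-dwelling muscles (median 0.209%), and most of that was *gapdh*.

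All 4 glycogen genes tested in muscle were higher in the open-water species, as were 8.45% of all genes. The further glycogen member, *pygl*, did not pass the filter in muscle. *pgm1*, which turns glucose phosphate from glycogen into the form that enters glycolysis, was at 536, 798 and 1075 TPM in DL muscles and 1758, 1848 and 1669.6 TPM in RL muscles, against 234, 91.3 and 67.8 TPM in MZ muscles and 59.5, 71.1 and 32.6 TPM in PG muscles. Its open-water muscles averaged 1281 ± 553 TPM (SD, n = 6) and its rock-dwelling ones 92.7 ± 71.9 TPM (SD, n = 6) (log2 fold change 3.91 ± 0.31, adjusted p = 1.36e-05). The groups did not overlap, RL was above DL, and muscle MZ1 was the highest of the rock-dwelling fish. *agl* was at 92.3, 88.9 and 193 TPM in DL muscles and 236, 498 and 377 TPM in RL muscles, against 51.5, 25.8 and 19.9 TPM in MZ muscles and 23.1, 30.1 and 16.6 TPM in PG muscles (log2 fold change 2.92 ± 0.30, adjusted p = 5.42e-05). *gys1* was at 157, 164 and 211 TPM in DL muscles and 166, 387 and 328 TPM in RL muscles, against 117, 60.1 and 78.6 TPM in MZ muscles and 66.8, 67.8 and 62 TPM in PG muscles (log2 fold change 1.58 ± 0.23, adjusted p = 0.000487). For both, the lowest open-water muscle was above the highest rock-dwelling one, which was MZ1 again. *gbe1* was at 44.8, 32.4 and 43.6 TPM in DL muscles and 30.4, 26.5 and 21.8 TPM in RL muscles, against 11.8, 5.80 and 9.47 TPM in MZ muscles and 6.50, 5.80 and 3.64 TPM in PG muscles (log2 fold change 2.10 ± 0.20, adjusted p = 3.49e-05). Here every DL muscle was above every RL muscle, and every RL muscle above the rock-dwelling ones.

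Of the 6 genes of glycolytic steps tested in muscle, 3 were higher, 1 was lower and 2 were not called. Of all genes, 8.45% were higher and 8.68% lower. *gpi* was at 1028, 1869.7 and 2480.3 TPM in DL muscles and 3841, 4441 and 3718 TPM in RL muscles, against 379, 20.6 and 19.3 TPM in MZ muscles and 72.2, 109 and 32 TPM in PG muscles. The log2 fold change of 5.45 (adjusted p = 0.000128) was the largest of all members in muscle, and among the rock-dwelling fish muscle MZ1 was far above MZ2 and MZ3. *gapdh* (glyceraldehyde phosphate dehydrogenase) was at 14708, 25716 and 34231 TPM in DL muscles and 84198, 57058 and 58535 TPM in RL muscles, against 5331, 1374 and 689 TPM in MZ muscles and 1429, 1518 and 578 TPM in PG muscles. Its open-water muscles averaged 45741 ± 25563 TPM (SD, n = 6) and its rock-dwelling ones 1819.9 ± 1766 TPM (SD, n = 6) (log2 fold change 4.85 ± 0.45, adjusted p = 2.95e-05), without overlap. This one gene took between 1.47 and 8.42% of all TPM in open-water muscles and between 0.0578 and 0.533% in rock-dwelling muscles. *pgk1*, the next enzyme, was at 637, 823 and 1301 TPM in DL muscles and 1965, 2393 and 1999 TPM in RL muscles, against 149, 59.5 and 72.7 TPM in MZ muscles and 86.3, 80.6 and 49.9 TPM in PG muscles (log2 fold change 4.11 ± 0.26, adjusted p = 4.44e-06). Again every RL muscle was above every DL muscle, and MZ1 was the highest of the rock-dwelling fish.

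Not all of glycolysis followed this order. *eno1*, further down the pathway, was at 117, 136 and 256 TPM in DL muscles and 86.7, 153 and 118 TPM in RL muscles, against 145, 179 and 78.6 TPM in MZ muscles and 131, 149 and 101 TPM in PG muscles, groups that overlap, and was not called (0.11 ± 0.26, adjusted p = 0.771). *pfkfb2* was not called either (0.13 ± 0.20, adjusted p = 0.636). *pfkfb3* was the one member that was lower in open-water muscles, at 1.46, 0.839 and 0.757 TPM in DL muscles and 0.809, 2.10 and 1.53 TPM in RL muscles, against 2.82, 4.59 and 3.36 TPM in MZ muscles and 5.82, 12.4 and 9.66 TPM in PG muscles (log2 fold change -1.61 ± 0.21, adjusted p = 0.000238). All its values were low and the groups did not overlap. *hk1*, the hexokinase of most tissues, was not called (-0.29 ± 0.20, adjusted p = 0.289), and *gckr*, which binds glucokinase in mammalian liver, was higher at 3.69, 2.34 and 3.20 TPM in DL muscles and 3.62, 2.51 and 2.93 TPM in RL muscles, against 0.768, 0.629 and 0.207 TPM in MZ muscles and 1.28, 0.997 and 1.29 TPM in PG muscles (log2 fold change 1.14 ± 0.16, adjusted p = 0.000352).

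**Figure D3:**
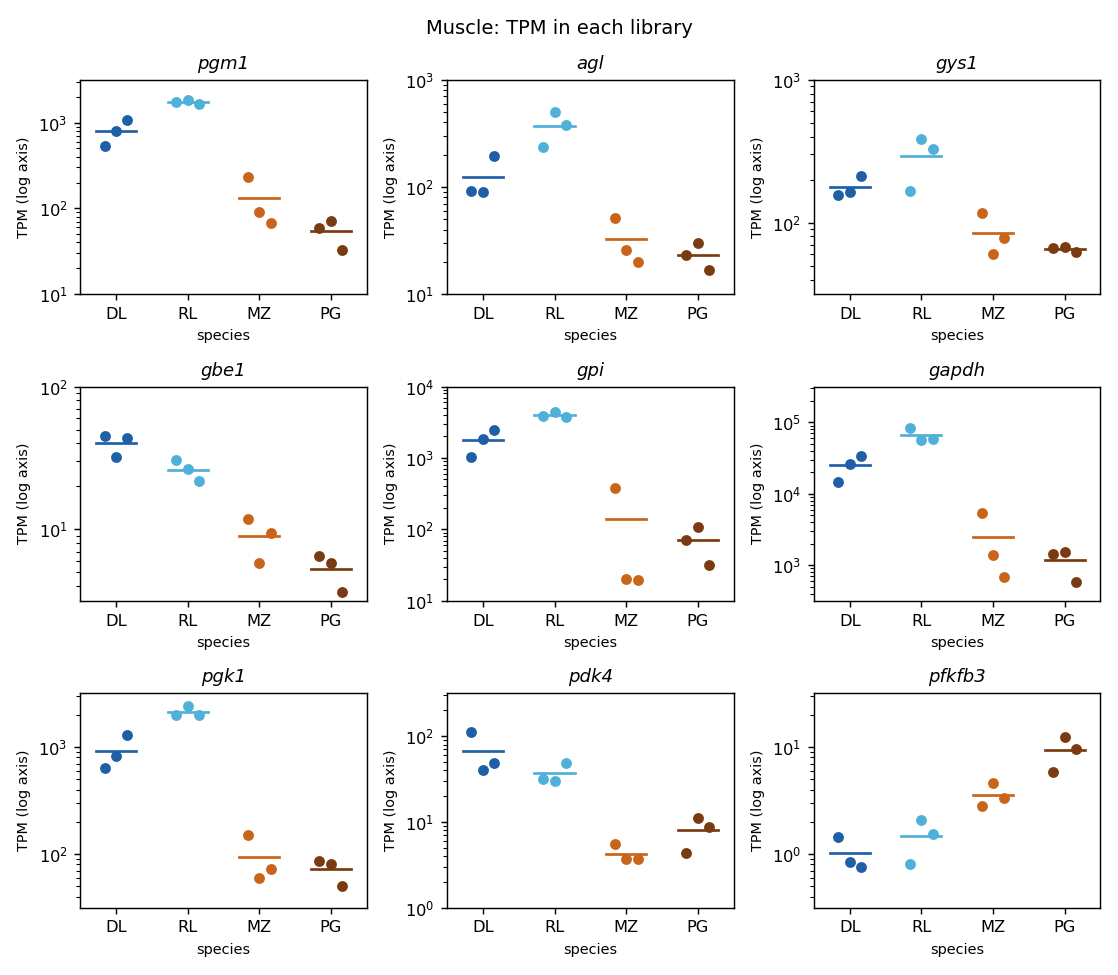
TPM of 9 members in each muscle (points, log axes) by species (horizontal axis), with a line at the mean of the species. In the first 8 panels every point of DL and RL lies above every point of MZ and PG, and in the panel of *pfkfb3* every point lies below. The panels are a selection of members, and the share of all genes without overlap was not computed.

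Of the 7 genes of pyruvate and lactate, 4 were higher in open-water muscles, beside 8.45% of all genes, and 3 were not called. *pdk4*, an inhibitor of pyruvate dehydrogenase, was at 111, 40.4 and 48.6 TPM in DL muscles and 32, 29.9 and 49.3 TPM in RL muscles, against 5.49, 3.65 and 3.69 TPM in MZ muscles and 4.30, 11.2 and 8.77 TPM in PG muscles (log2 fold change 2.83 ± 0.28, adjusted p = 4.91e-05). The lowest open-water muscle was above the highest rock-dwelling one. *pdhb* and *pdhx*, subunits of the pyruvate dehydrogenase complex itself, were higher as well. *pdhb* was at 53.6, 28.4 and 60.0 TPM in DL muscles and 35.7, 65.6 and 48.1 TPM in RL muscles, against 17.4, 14.7 and 19.2 TPM in MZ muscles and 24.2, 15.1 and 16.4 TPM in PG muscles (log2 fold change 1.36 ± 0.23, adjusted p = 0.0011). *pdhx* was at 44.4, 31.8 and 55.2 TPM in DL muscles and 43.6, 45.6 and 44.2 TPM in RL muscles, against 28.5, 25.5 and 31.6 TPM in MZ muscles and 22.9, 14.6 and 13 TPM in PG muscles (log2 fold change 0.98 ± 0.18, adjusted p = 0.0021). In both genes DL2 was the lowest open-water muscle, for *pdhx* only just above MZ3. *ldhd*, which oxidises D-lactate, was called (0.75 ± 0.17, adjusted p = 0.00704), but not without any one of DL1, DL3, MZ2, MZ3, PG2, PG3, RL1, RL2 or RL3 (adjusted p up to 0.0209). The kinases *pdk1* (0.56 ± 0.22, adjusted p = 0.0718) and *pdk3* (0.83 ± 0.30, adjusted p = 0.0528) and the subunit *pdha1* (0.58 ± 0.21, adjusted p = 0.0545) were not called.

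Among the carriers, *slc2a4* was higher in open-water muscles, at 10.2, 13.1 and 27.9 TPM in DL muscles and 12.3, 13.6 and 13.5 TPM in RL muscles, against 9.67, 8.14 and 3.33 TPM in MZ muscles and 1.53, 3.55 and 1.62 TPM in PG muscles (log2 fold change 1.66 ± 0.29, adjusted p = 0.00142). The lowest open-water muscle, DL1, was just above the highest rock-dwelling one, MZ1, and MZ3 lay among the PG muscles. *slc2a12* was not called and its estimate was negative (-1.06 ± 0.34, adjusted p = 0.034). *slc2a8* (0.42 ± 0.19, adjusted p = 0.117) and *slc2a10* (0.50 ± 0.17, adjusted p = 0.039) were not called, although *slc2a10* passed with quantile normalization (0.00614). Only open-water muscles reached 1 TPM for *slc2a10*, so that pass is no independent evidence. *pgm2l1*, which makes glucose bisphosphate, was at 14.3, 14.3 and 17.4 TPM in DL muscles and 20.5, 34.5 and 28.1 TPM in RL muscles, against 11.6, 7.42 and 12 TPM in MZ muscles and 9.57, 6.30 and 5.01 TPM in PG muscles (log2 fold change 1.21 ± 0.20, adjusted p = 0.000998), while *pgm2* (-0.17 ± 0.16, adjusted p = 0.452) and *pgm3*, an enzyme of amino sugars (-0.17 ± 0.23, adjusted p = 0.598), were not called. Of the genes matched by name only, *slc2a4rg* was higher (1.10 ± 0.24, adjusted p = 0.00502), but not without any one of DL1, DL2, DL3, MZ1, MZ2, PG3, RL1 or RL3 (adjusted p up to 0.0141), and *pgam5* was not called (-0.15 ± 0.19, adjusted p = 0.579).

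The 16 muscle calls differed in size on the TPM scale. With the further condition of at least 50 TPM between the group means, 6 remained: *agl*, *gapdh*, *gpi*, *gys1*, *pgk1* and *pgm1*. This condition favours abundant genes, and the share of all genes under it was not computed, here or in the livers below. Levels of marker genes were set beside the same contrast, without a test. The fast muscle markers summed to between 15050 and 29158 TPM in open-water muscles and between 5411 and 19178 TPM in rock-dwelling ones, and the 3 listed leukocyte markers to between 45.6 and 201 TPM against between 116 and 348 TPM. *mb*, myoglobin, the 1 listed marker of slow muscle, was between 18.1 and 105 TPM against between 2.31 and 94.7 TPM. Their part in the result was not tested. The summed level of each of these lists overlapped between the habitats.

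In the single pairs, the members called were 7 of 29 in DL over MZ (3.40% of all genes), 13 in DL over PG (10.6%), 10 in RL over MZ (5.82%) and 14 in RL over PG (11.8%). *gapdh*, *gbe1*, *gpi*, *pdk4*, *pgk1* and *pgm1* were called in all 4 pairs, and *pgk1* held in all 4 when any single library was left out. The share of all genes called in all 4 pairs was not computed. The pair DL over MZ was the least steady. There *pgm1* was lost without DL2, DL3, MZ2 or MZ3 (adjusted p up to 0.0173), *gapdh* without the same fish (up to 0.0225) and *gpi* without any one of these, DL1, PG1, RL1, RL2 or RL3 (up to 0.0311). Fitted on that pair alone, none of the 3 was called (0.0175 for *pgm1*, 0.0219 for *gapdh*, 0.0317 for *gpi*), nor were *gapdh* (0.0136) and *gpi* (0.0155) with no filter on low values. Elsewhere *gpi* in DL over PG was lost without DL2, DL3, PG1 or PG3 (up to 0.0192), *gbe1* in RL over MZ without MZ2, MZ3 or any one RL muscle (up to 0.0235) and fitted on the pair alone (0.0167), and *pdk4* in RL over PG without PG1, PG3 or RL3 (up to 0.0161).

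Within a habitat no member was called in muscle by limma. In DL over RL, 0 of 29 members were called (0.486% of all genes) and 5 had an unadjusted p under 0.05. In MZ over PG, 0 were called (1.13% of all genes) and 9 had an unadjusted p under 0.05. The same counts of 0 were found with quantile normalization. With 3 fish a species these counts do not show that the levels were alike: *gapdh* averaged 24885 ± 9788 TPM (SD, n = 3) in DL and 66597 ± 15261 TPM (SD, n = 3) in RL.

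In the livers fewer members were called, and all were higher in the open-water species. Of the 33 members tested, 7 were higher and 0 lower, beside 6.93% and 3.38% of all genes, so 21.2% of the members and 10.3% of all genes were called. The median log2 fold change was 0.34 over the members tested and 0.13 over all genes, and with quantile normalization 0.15 and 0.02. Over the 6 pairs of species, 5 members were called in at least 1, as were 11.8% of all genes. Of the 7 and of these 5, *slc2a4* passed the filter through open-water livers alone. The share of all genes called that passed through a single habitat is not given. The 43 genes made up between 0.224 and 0.803% of all TPM in open-water livers (median 0.485%) and between 0.163 and 0.587% in rock-dwelling livers (median 0.354%), which overlap.

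*pygl* separated the livers most. It was at 63.4, 54.8 and 111 TPM in DL livers and 106 and 71.1 TPM in RL livers, against 5.05, 6.94 and 6.57 TPM in MZ livers and 1.24, 1.48 and 2.17 TPM in PG livers. The open-water livers averaged 81.3 ± 25.6 TPM (SD, n = 5) and the rock-dwelling ones 3.91 ± 2.59 TPM (SD, n = 6) (log2 fold change 4.22 ± 0.26, adjusted p = 5.19e-06). No liver of one habitat reached those of the other, and MZ was above PG, though this pair was called only with quantile normalization (adjusted p = 0.00907, against 0.0358 without it). *pygl* was called in each of the 4 open-water over rock-dwelling pairs, from 3.37 in DL over MZ to 5.08 in RL over PG, whichever library was left out.

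*agl*, which works with the phosphorylase on the branches of glycogen, was at 13.4, 15 and 29 TPM in DL livers and 12.3 and 15.3 TPM in RL livers, against 2.76, 5.06 and 6.58 TPM in MZ livers and 1.98, 3.45 and 4.13 TPM in PG livers (log2 fold change 1.81 ± 0.29, adjusted p = 0.00169). The groups did not overlap. *gbe1* was at 41.9, 46.8 and 104 TPM in DL livers and 51.2 and 42.4 TPM in RL livers, against 14.2, 15.1 and 27 TPM in MZ livers and 8.49, 13.9 and 23.6 TPM in PG livers (log2 fold change 1.66 ± 0.35, adjusted p = 0.00674), again without overlap, but its call was lost without any one of DL2, DL3, MZ1, MZ2, PG1, PG2, RL2 or RL3 (adjusted p up to 0.0300) and with no filter on low values (0.0129). Of the other glycogen genes, *pgm1* was between 36.4 and 90.5 TPM in open-water livers and between 16.2 and 46.2 TPM in rock-dwelling livers and was not called (0.99 ± 0.35, adjusted p = 0.0555). *gys1* was not called, with an estimate below 0 (-0.84 ± 0.51, adjusted p = 0.245).

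The other liver calls were smaller or at low levels. *gapdh* was at 2521, 3032 and 3891 TPM in DL livers and 1143 and 2311 TPM in RL livers, against 774, 1322 and 1346 TPM in MZ livers and 836, 1021 and 817 TPM in PG livers (log2 fold change 1.17 ± 0.25, adjusted p = 0.00665). Here liver RL2 lay below livers MZ2 and MZ3, and the call was lost without any one of DL2, DL3, MZ1, MZ2, PG1, PG2, PG3 or RL3 (up to 0.0316) and with no filter on low values (0.0174). *gckr* was at 4.84, 2.97 and 4.62 TPM in DL livers and 4.12 and 2.28 TPM in RL livers, against 1.09, 1.69 and 1.60 TPM in MZ livers and 1.31, 1.15 and 1.03 TPM in PG livers (log2 fold change 0.99 ± 0.21, adjusted p = 0.00638), lost without any one of DL1, DL3, MZ1, MZ2, PG1, PG2, PG3 or RL2 (up to 0.0381) and with no filter (0.0125). *slc2a4* was at 1.17, 2.00 and 2.54 TPM in DL livers and 0.834 and 1.82 TPM in RL livers, against 0.325, 0.240 and 0.399 TPM in MZ livers and 0.106, 0.218 and 0.0782 TPM in PG livers (log2 fold change 1.06 ± 0.20, adjusted p = 0.00401), lost without MZ2 (0.0119), PG1 (0.0106) or RL3 (0.0231). *slc2a4rg* was at 8.70, 11.8 and 21.1 TPM in DL livers and 6.46 and 9.0 TPM in RL livers, against 2.10, 2.63 and 4.51 TPM in MZ livers and 2.68, 1.94 and 1.87 TPM in PG livers (log2 fold change 1.64 ± 0.27, adjusted p = 0.00189), lost without RL3 (0.0105). For *slc2a4* only open-water livers reached 1 TPM, so the filter built a difference between the habitats into its selection. Its call, counted among the 7, is no independent evidence. With at least 50 TPM between the group means, *gapdh* and *pygl* remained.

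**Figure D4:**
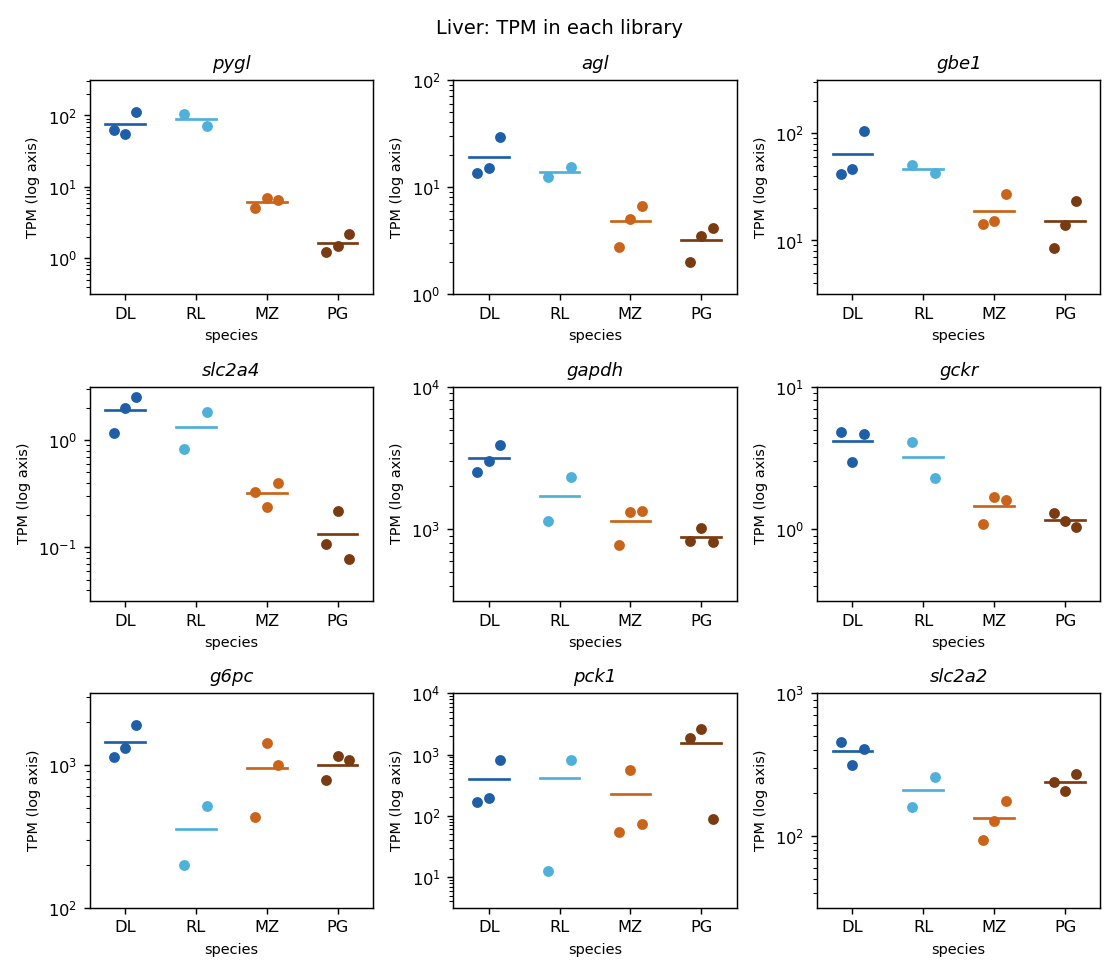
TPM of 9 members in each liver (points, log axes) by species (horizontal axis), with a line at the mean of the species. *pygl*, *agl*, *gbe1*, *slc2a4* and *gckr* show no overlap between DL or RL and MZ or PG, in *gapdh* liver RL2 lies among the MZ livers, and *g6pc*, *pck1* and *slc2a2* overlap. The panels are a selection of members, and the share of all genes without overlap was not computed.

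The gluconeogenic genes and the hepatocyte carrier were not called between the habitats. This held for *g6pc* (-0.44 ± 0.35, adjusted p = 0.371), whose lowest level was in liver RL2, for *pck1* (-0.84 ± 1.19, adjusted p = 0.629), *pck2* (0.24 ± 0.28, adjusted p = 0.568) and for *slc2a2* (0.68 ± 0.25, adjusted p = 0.0709). *pck1* has an SE over 1 on the log2 scale, so a difference of several-fold in either direction was not detectable. *pfkfb3* was between 4.27 and 30.4 TPM in open-water livers and between 4.48 and 108 TPM in rock-dwelling livers and was not called (-1.52 ± 0.58, adjusted p = 0.0763), nor was *eno1* (-1.14 ± 0.48, adjusted p = 0.104) or *hk1* (-0.62 ± 0.36, adjusted p = 0.229). *pdk4* was at 12.7, 8.76 and 20.7 TPM in DL livers and 8.68 and 27.6 TPM in RL livers, against 36.5, 57.4 and 92.9 TPM in MZ livers and 20.8, 24.8 and 44.6 TPM in PG livers, and missed the threshold (-1.44 ± 0.39, adjusted p = 0.0206), which it passed with quantile normalization (adjusted p = 0.00401). None of the 7 genes of pyruvate and lactate was called in liver, beside 10.3% of all genes.

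In the livers some markers of other cell types lay apart between the habitats. The leukocyte markers summed to between 35.7 and 111 TPM in open-water livers and between 156 and 422 TPM in rock-dwelling livers, without overlap. The hepatocyte markers summed to between 9905 and 28166 TPM against between 13347 and 33049 TPM, but single markers differed. *apob* was between 75.8 and 459 TPM against between 21.5 and 61.1 TPM, without overlap. *hnf4a* was between 17.3 and 44.2 TPM against between 5.63 and 13.3 TPM, also without overlap. The other listed hepatocyte markers overlapped. *cpb1*, the 1 listed marker of exocrine pancreas, was between 186 and 634 TPM against between 10.1 and 494 TPM. *mb* was between 0.238 and 6.35 TPM against between 14.2 and 31.3 TPM, without overlap. The 4 listed islet markers summed to between 1.90 and 6.52 TPM against between 0.370 and 2.51 TPM. In open-water livers this sum was *pdx1* alone, which was between 0.114 and 1.55 TPM in rock-dwelling livers. *ins*, *gcg* and *iapp* were at 0 TPM in every open-water liver. They were at 0 TPM in the rock-dwelling livers too, except *ins* in PG1 (0.256 TPM), *gcg* in MZ3 (0.958 TPM) and *iapp* in MZ1 (0.146 TPM). Their part in the result was not tested.

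Of single pairs of species in liver, 2 of 33 members were called in DL over MZ (4.56% of all genes), 5 in DL over PG (8.40%), 1 in RL over MZ (1.87%) and 1 in RL over PG (4.05%), and all were higher in the open-water species. In DL over MZ these were *pygl* and *slc2a4rg*, the latter lost without any one of 9 livers (adjusted p up to 0.0367). In DL over PG these were *agl*, *gapdh*, *pygl*, *slc2a4* and *slc2a4rg*, of which *slc2a4* passed the filter through open-water livers alone. There *agl* was lost without DL3, PG1 or PG2 (up to 0.0159) and *gapdh* without any one of 5 livers (up to 0.0177). *slc2a4* was lost without any one of 6 (up to 0.0261) and *slc2a4rg* without PG2 or PG3 (up to 0.013). Only *pygl* held throughout. Between species of one habitat limma called 0 members in DL over RL (0.795% of all genes; 4 with an unadjusted p under 0.05) and 0 in MZ over PG (1.37%; 7 with an unadjusted p under 0.05), where quantile normalization called *pygl*.

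The open-water contrast was then compared between the tissues, with an interaction in the fit of all 23 libraries. Of the 36 members tested there, 8 differed between liver and muscle, as did 7.87% of all genes. In 7 of them, *gapdh*, *gpi*, *gys1*, *pdk4*, *pgk1*, *pgm1* and *pgm2l1*, the contrast was more positive in muscle, and for *pygl* it was more positive in liver. *pygl* did not reach 1 TPM in any muscle (at most 0.937 TPM) and *gpi* was near 0 TPM in all livers but DL2, so for these genes the interaction repeats the contrast of the one tissue in which they were measured above the filter. Of the 26 members that passed in each tissue, 6 were called, and the called share of all such genes was not computed. *gapdh* was higher in the open-water fish in both tissues, by 1.17 in liver and 4.85 in muscle on the log2 scale, and the contrasts differed (-3.67 ± 0.56, adjusted p = 0.000162). The contrasts also differed for *pgk1* (-3.43 ± 0.40, adjusted p = 1.07e-05), whose liver contrast was not called (0.68 ± 0.31, adjusted p = 0.127), and for *pgm1* (-2.92 ± 0.47, adjusted p = 0.000295), likewise not called in liver. For *pdk4* (-4.27 ± 0.49, adjusted p = 9.57e-06) the estimate in liver had the opposite sign and was not called. *gys1* (-2.42 ± 0.58, adjusted p = 0.00779) was lost with the fish as a replicate block (adjusted p = 0.0175), with smaller pseudocounts (up to 0.0227), with no filter (0.0125) and without any one of 17 libraries (up to 0.0249). *agl* and *gbe1*, called in both tissues, were not called in the interaction (-1.11 ± 0.43, adjusted p = 0.0915 for *agl* and -0.44 ± 0.39, adjusted p = 0.501 for *gbe1*).

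**Figure D5:**
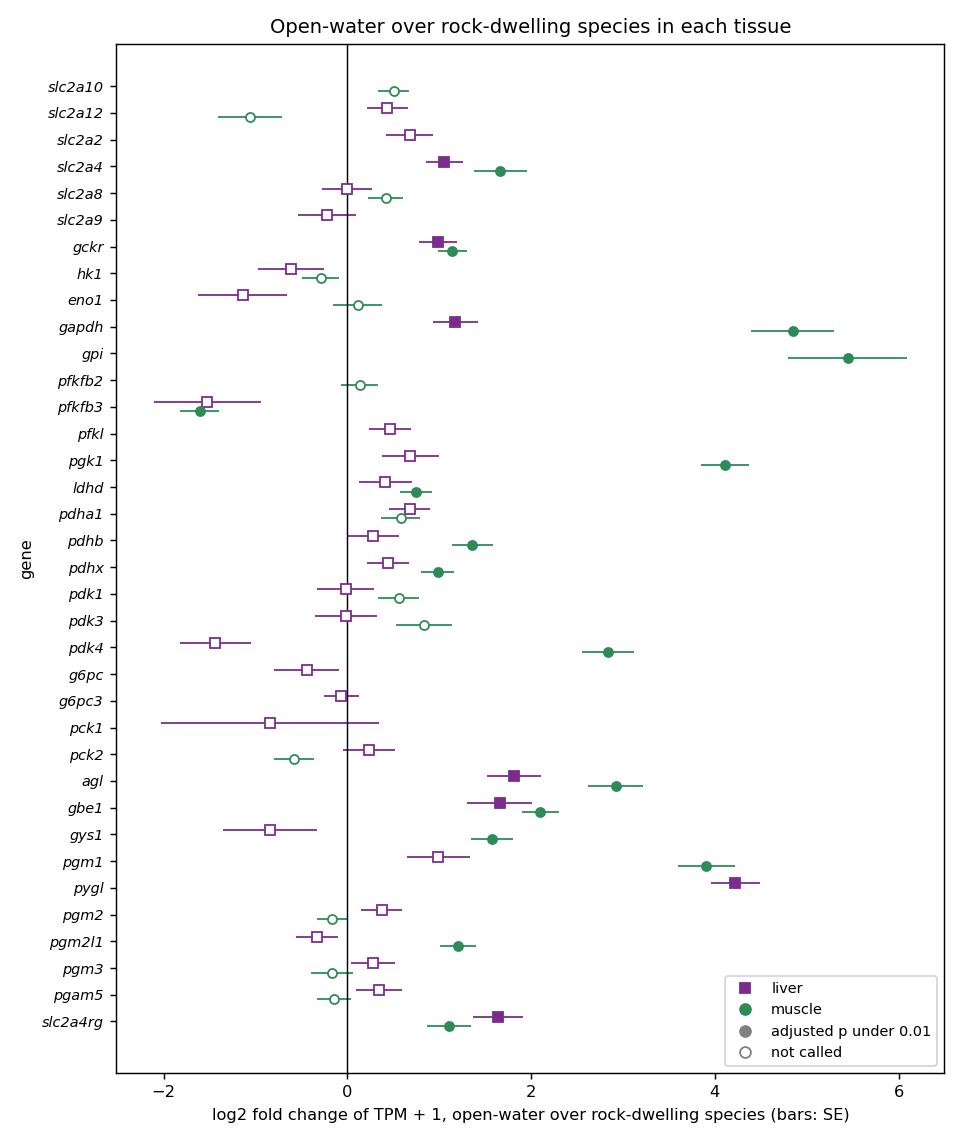
Log2 fold change of TPM + 1 (horizontal axis, bars for the SE), open-water over rock-dwelling species, of each of the 36 members (rows) in liver (squares) and muscle (circles), filled where the adjusted p was under 0.01. *gapdh*, *gpi*, *pgk1* and *pgm1* lie beyond 3.5 in muscle, *pygl* lies at 4.22 in liver, and *pdk4* lies on opposite sides of 0 in the tissues.

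Genes around the pathway were read from further lists, of which 33 genes that are not members were in the tables. In muscle 8 of the 26 tested were higher in the open-water species and 2 lower, beside 8.45% and 8.68% of all genes, with a median log2 fold change of 0.39 against 0.07 over all genes. In liver 5 of 30 were higher and 2 lower, beside 6.93% and 3.38% of all genes, with a median of 0.50 against 0.13 over all genes. Among the lower ones, *phkg1* in liver and *gale* in muscle passed the filter through the rock-dwelling fish alone. Among genes of glycogen handling, several subunits of the kinase that switches phosphorylase on were called. *phkg1*, its catalytic subunit in mammalian muscle, was at 130.3, 81.4 and 135 TPM in DL muscles and 164, 263 and 289 TPM in RL muscles, against 50.9, 22.3 and 21.8 TPM in MZ muscles and 33.2, 18.5 and 15 TPM in PG muscles (2.66 ± 0.28, adjusted p = 6.33e-05). In livers *phkg1* was lower in the open-water species (-1.19 ± 0.26, adjusted p = 0.00794). It was between 0.243 and 0.508 TPM against between 0.423 and 3.97 TPM in rock-dwelling livers, ranges that overlap at low levels. Only rock-dwelling livers reached 1 TPM, so a difference was built into the selection and this call is no independent evidence. *phkb* was higher in both tissues (1.02 ± 0.23, adjusted p = 0.00999 in liver, 1.64 ± 0.21, adjusted p = 0.000187 in muscle), and *phka2* was higher in open-water livers (1.70 ± 0.32, adjusted p = 0.00401). *phkg2*, a further subunit, was not called in liver. It was between 2.9 and 8.1 TPM in open-water livers and between 4.41 and 14.2 TPM in rock-dwelling ones, ranges that overlap. *ppp1r3c*, which brings a phosphatase to glycogen, was at 67.8, 158 and 175 TPM in DL livers and 198 and 159 TPM in RL livers, against 27.4, 28.8 and 26.6 TPM in MZ livers and 8.34, 19.1 and 11.2 TPM in PG livers (2.94 ± 0.32, adjusted p = 0.000166), and its relative *ppp1r3b* was higher too (2.55 ± 0.38, adjusted p = 0.00109). *slc37a4*, which carries glucose phosphate to the phosphatase of *g6pc*, was higher in open-water livers (1.84 ± 0.31, adjusted p = 0.0021). *gale*, an enzyme of galactose, was the other neighbouring gene that was lower there (-2.04 ± 0.47, adjusted p = 0.00996), just under the threshold.

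Next to glycolysis in muscle stands *gpd1*, which makes glycerol phosphate from a glycolytic intermediate. It was at 434, 663 and 922 TPM in DL muscles and 1049, 1299.8 and 1155 TPM in RL muscles, against 114, 69 and 36.1 TPM in MZ muscles and 48.4, 57.8 and 16.7 TPM in PG muscles (4.12 ± 0.35, adjusted p = 1.59e-05), with every RL muscle above every DL muscle and no overlap between the habitats. *dlat*, a further subunit of the pyruvate dehydrogenase complex (1.68 ± 0.21, adjusted p = 0.000175), *dld*, which it shares with other complexes (0.81 ± 0.19, adjusted p = 0.00873), and the mitochondrial pyruvate carriers *mpc1* (0.94 ± 0.19, adjusted p = 0.00318) and *mpc2* (1.40 ± 0.27, adjusted p = 0.00259) were higher in open-water muscles, as was *epm2a*, a phosphatase of glycogen (1.36 ± 0.16, adjusted p = 0.000137). The neighbouring genes that were lower there were *irs2*, which relays the signal of the insulin receptor (-2.86 ± 0.31, adjusted p = 7.82e-05), and *gale* (-2.91 ± 0.29, adjusted p = 4.20e-05). *gale* reached 1 TPM in rock-dwelling muscles alone, so its call in muscle is no independent evidence. None of the 5 listed genes of the pentose phosphate pathway was called between the habitats in liver (5 tested) or muscle (3 tested). These neighbouring genes were not refitted without single libraries, and *phkb* in liver lay just under the threshold.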

How the data were processed

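Total RNA of livers and muscles was depleted of ribosomal RNA and sequenced with strand kept. The authors trimmed the reads (Trim Galore) and pseudo-aligned those of every species to the transcriptome of *M. zebra* (assembly UMD2a) with kallisto, and deposited TPM values per gene. A species farther from *M. zebra*, or a near-identical gene copy, may lose or split reads. TPM hold no counts, so no counting error is given.

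From the TPM, log2(TPM + 1) was fitted with limma 3.58.1 (R 4.3.3), with a trend in the variance, on genes that reached 1 TPM in 2 or more of its libraries. One fit held the 11 livers, one the 12 muscles and one all 23 libraries. p-values were adjusted over all genes of a contrast (Benjamini-Hochberg) and called under 0.01. The study's own test (sleuth) needs kallisto's output files, which were not used here, and limma took its place. The p-values measure the spread between fish of a species within a tissue, not the spread between species. The main fit of all 23 libraries has no term for the fish, so it treats liver and muscle of the same fish as independent. The fits were tested on simulated data. Named genes were the members called in a comparison, the main liver and muscle forms and the members most abundant or most different between tissues. The members and lists were chosen with earlier results of these data known. Alternatives were other pseudocounts, filters, quantile normalization, a difference of at least 50 TPM, single pairs, each library left out and the fish as a replicate block. Liver and muscle are paired by the fish named in the study's sample names, and deviations from group means correlated across genes by 0.0920 to 0.160 within a fish (median 0.124, n = 11) and by -0.131 to 0.0331 between fish of a species (n = 22). Because deviations are centred on group means, positive values within a fish bring negative ones between fish. With 2 RL livers the values of RL mirror each other in sign, so these correlations are not independent. The deposited list of differentially methylated regions was not used here, since its positions are on UMD2a and no annotation of that build was at hand.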

Additional observations from a re-analysis of the deposited data

Results flagged for a closer look

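The open-water contrast differed between liver and muscle for 8 members, by the interaction in limma, with values given as the contrast in liver minus that in muscle on the log2 scale. For *pygl* it was 4.26 (adjusted p = 1.69e-08), and *pygl* was not tested in muscle alone. For *gapdh* it was -3.67 (adjusted p = 0.000162), with a contrast of 1.17 in liver and 4.85 in muscle. For *gpi* it was -4.93 (adjusted p = 0.000998), which was lost with a pseudocount of 0.1 (0.0281), and *gpi* was not tested in liver alone. For *pygl* and *gpi* the value repeats the contrast of the one tissue in which they passed the filter. For *pgk1* it was -3.43 (adjusted p = 1.07e-05), with 0.68 in liver and 4.11 in muscle. For *pgm1* it was -2.92 (adjusted p = 0.000295), with 0.99 in liver and 3.91 in muscle. For *pdk4* it was -4.27 (adjusted p = 9.57e-06), with -1.44 in liver and 2.83 in muscle. For *pgm2l1* it was -1.54 (adjusted p = 0.00128), with -0.33 in liver and 1.21 in muscle. For *gys1* it was -2.42 (adjusted p = 0.00779), with -0.84 in liver and 1.58 in muscle, and this call was lost with the fish as a replicate block (0.0175).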

How the results depend on the processing

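Of 182 calls of a member in a comparison, 74 held under every alternative run for them, 108 were lost under at least 1 and 0 reversed. The condition of at least 50 TPM left 15 members between the tissues, 2 among livers, 7 among muscles, 2 in the open-water contrast of livers and 6 in that of muscles. Shares of all genes under this condition were not computed. For the counts of members under the other settings below, the shares of all genes called are not given. Whether the members changed more than all genes was not tested. Quantile normalization gave 8 members among livers, and no filter on low values gave 4 in the open-water contrast of livers. Leaving out single libraries gave 28 to 31 members between the tissues, 1 to 7 among livers, 12 to 15 among muscles, 3 to 7 and 14 to 17 in the open-water contrasts of livers and muscles, and 7 to 8 in the interaction. Among livers the lowest counts came without DL2 (3), DL3 (2), PG1 (2), PG2 (1) or PG3 (2), and in the open-water contrast of livers without DL3 (4), MZ1 (4), MZ2 (3), PG1 (3), PG2 (4) or RL3 (3). The cause was not tested. With the fish as a replicate block, which pairs liver and muscle, 28 members were called between the tissues and 7 in the interaction, and beyond the calls named with it above the block ended no other call. Quantile normalization moved the median of all genes by 0.35 in DL over MZ livers, 0.24 in DL over RL livers, -0.18 in MZ over PG livers, 0.11 in the open-water contrast of livers and -0.43 in liver over muscle in MZ. Of the genes called, members or not, the share that was higher also moved. It was then 53.9% in place of 67.2% in the open-water contrast of livers and 47.9% in place of 73.7% in DL over MZ livers. It was 44.0% in place of 28.5% in RL over MZ muscles and 44.5% in place of 23.9% in liver over muscle in MZ. Without counts, a level near 0 TPM cannot be told from one missed at low depth. The planned count of differentially methylated regions at these genes, with its distances, was not run.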
